A study of Mus musculus with 6 samples.

Results

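Double negative (DN) T cells of the normal mouse kidney were compared with CD8 T cells of the same organ, both for what the pair of subsets shared and for what differed. DN cells carry an αβ T cell receptor but neither the CD4 nor the CD8 coreceptor. The members were the cells of the control DN and control CD8 libraries that had at least 500 detected genes, at most 20% of unique molecular identifiers (UMIs) in mitochondrial genes and at least 1 UMI of Cd3d, Cd3e or Cd3g. These were 9309 DN cells and 9685 CD8 cells, 18994 of the 49177 cells that met the same limits in the whole series.

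The study sorted live CD45+ αβ TCR+ cells from kidneys of C57BL/6J males that were 7 to 8 weeks old and split them by CD4 and CD8α antibodies into CD4, CD8 and DN cells. Mice were either left normal (control) or had both renal pedicles clamped for 30 min followed by reperfusion (IR), and each of the 6 groups was 1 droplet library of unique molecular counts. How many mice a library came from is not given in the sources used here. No difference below therefore has a replicate check in these data, no test was run, and every interval is a 95% interval for counting error only.

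In the thymus, immature αβ T cells pass a stage with both coreceptors and then keep one of them. The CD8 coreceptor binds MHC class I, and CD8 cells are known for killing through granzymes and perforin and for secreting chemokines such as CCL5. DN cells are a small population in blood and lymph nodes and a larger one in mouse kidney, and they include natural killer T (NKT) cells, which read lipids presented on CD1d.

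The labels were examined first. Levels are given as CPM, the UMIs of a gene scaled to a fixed library total, without mitochondrial genes, ribosomal protein genes and Malat1. Cd8a, which encodes the CD8α chain, was at 0.186 CPM in control DN (0.0993 to 0.319) and at 853 CPM in control CD8 (845 to 861). Cd8b1, the CD8β chain, was at 1.26 CPM in DN (1.01 to 1.55) and 1348 CPM in CD8 (1338 to 1358). Cd4 was at 0.330 and 0.127 CPM in these libraries and at 203 CPM in control CD4. All 3 coreceptor genes therefore followed the labels. Kcnq5, a voltage-gated potassium channel gene that served as the positive marker of DN, was at 2295 CPM in DN (2283 to 2306) and 127 CPM in CD8 (124 to 130.3). Since sorting used CD4 and CD8α, the coreceptor values describe the sort and are not findings, and Kcnq5 was picked as a marker with these data known.

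The locus of the sorting gene held a further transcript that followed it. Gm44174, a long noncoding RNA that GENCODE places between Cd8b1 and Cd8a on the same strand of chromosome 6 (71353035 to 71373284), had 5 UMIs in DN and 17335 UMIs in CD8. Its levels were 0.0717 CPM in DN, 315 CPM in CD8 and 0.0681 CPM in CD4. The end of Gm44174 lies inside the RefSeq promoter window of Cd8a. The 300 bases that span the start of Cd8a (GRCm38.p6, chr6:71373177-71373476, plus strand) are shown because Gm44174 ends within them, before the start of Cd8a. The 108 bases that overlap Gm44174 are in capitals.

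Cd8a promoter: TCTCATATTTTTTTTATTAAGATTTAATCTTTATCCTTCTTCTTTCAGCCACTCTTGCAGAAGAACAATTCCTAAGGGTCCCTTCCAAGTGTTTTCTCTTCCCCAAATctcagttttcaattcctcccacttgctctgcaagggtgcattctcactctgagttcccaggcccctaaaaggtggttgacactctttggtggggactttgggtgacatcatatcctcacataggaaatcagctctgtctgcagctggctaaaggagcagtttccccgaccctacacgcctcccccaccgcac

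Reads of Gm44174 and of unspliced transcripts of the same strand that start upstream cannot be told apart here.

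The DN library was the deeper of the pair. The limits kept 97.7% of its barcodes and 89.0% of those of CD8. The kept cells had a median of 8554 UMIs in DN and 6943 UMIs in CD8, and 69741312 and 55049660 UMIs remained once the features named above were removed, which took 21.7% and 26.5% of UMIs. A count of 0 allowed up to 0.0430 CPM in DN and 0.0545 CPM in CD8 (3 counts), and such a count was set to 3 in ratios. Except for T cell receptor segments, shares of cells with a UMI were therefore compared after each cell was thinned to 2000 UMIs. This left out 254 DN cells and 2027 CD8 cells as too shallow. The 2 libraries shared 118 deposited barcodes, of which 37 were kept in both. Leaving these out lost or added no named gene at the 2-fold limit.

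Most genes were at similar levels in the 2 libraries. Of 9012 genes at 10 CPM or more in the higher library, 6356 (70.5%) were close, meaning that the higher level was at most 25% above the lower, 7719 (85.7%) were within 1.5-fold and 8400 (93.2%) less than 2-fold apart. Across these genes the log2 CPM values had a Pearson correlation of 0.92, which describes genes of 2 libraries and not replicates. DN was at least 2-fold higher for 327 genes (3.63%) and at least 2-fold lower for 285 (3.16%). Of these, 163 of the higher and 140 of the lower genes reached the minimum in the higher library alone, so that the minimum itself helped to choose them. Among the 8343 genes at 10 CPM or more in both libraries, 164 (1.97%) were higher and 145 (1.74%) lower. The counts over gene lists below describe the members that reached the minimum and not whole lists, and they are given again for members that reached it in both libraries where the count changes. Differences of 4-fold or more were seen for 212 genes and of 16-fold or more for 52. On the log2 scale the median gene had a DN to CD8 ratio of -0.02.

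**Figure D1:**
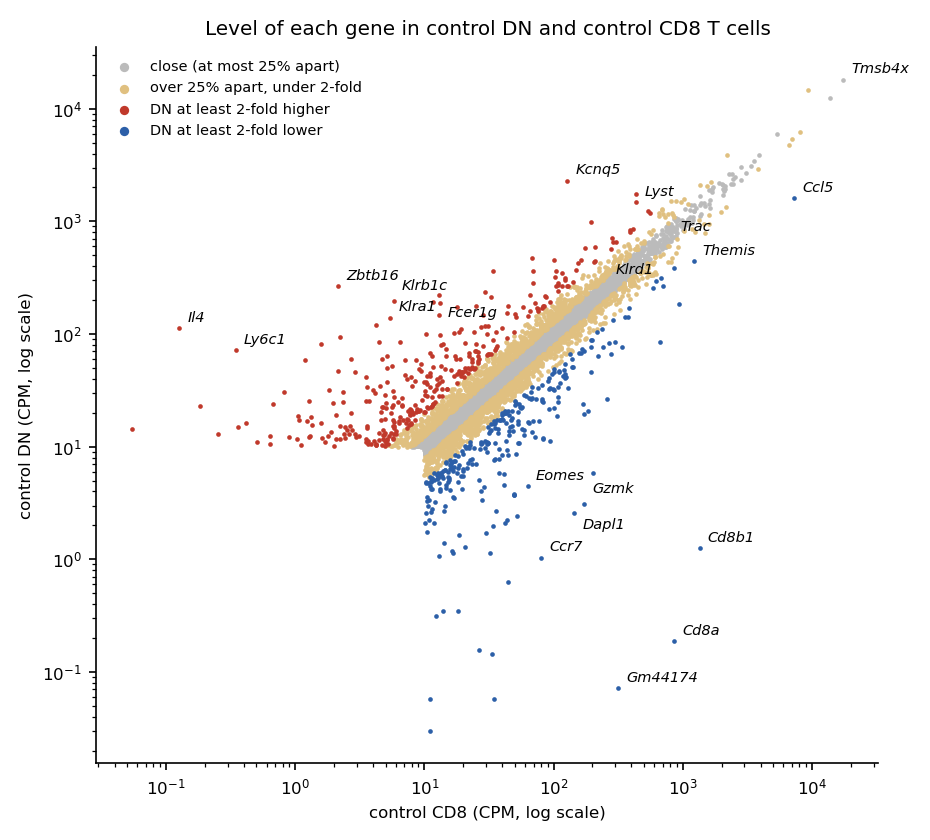
Level of each of 9012 genes in control CD8 (x axis) and control DN (y axis), in CPM on log axes, with 1 point per gene coloured by the size of the ratio and a level of 0 drawn at the lowest point. Most points lie along the diagonal (6356 close genes), while Cd8a, Cd8b1 and Gm44174 lie far to the lower right and Il4, Zbtb16 and Ly6c1 to the upper left.

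The 10 close genes with most UMIs were Tmsb4x, Actb, Tmsb10, Cd52, H2-K1, H2-D1, B2m, Hsp90ab1, Ppia and Pfn1. They encode actin and its binding proteins, a surface protein of lymphocytes, MHC class I chains and chaperones. Tmsb4x was at 18137 CPM in DN and 17362 CPM in CD8, and B2m at 3007 and 2815 CPM. The counts of close genes that follow stand beside 70.5% of all genes. Of 12 MHC class I genes, 8 were close and none reached 2-fold (median log2 ratio -0.18). Of 11 heat shock genes, 9 were close, and the exception past 2-fold was Bag3, a cochaperone, at 32.6 CPM in DN and 91.8 CPM in CD8. Among 13 interferon-stimulated genes 7 were close and none reached 2-fold, although Ifit3 passed it as lower in DN without the barcodes that held markers of other cells. Irf7, a factor that amplifies the interferon response, was at 60.3 CPM in DN and 62.7 CPM in CD8. Of 16 immediate early genes, which respond to stimulation and to tissue handling, 11 were close. Fos was at 1322 CPM in DN and 1258 CPM in CD8. Nr4a2, an orphan nuclear receptor gene, was the member that stood lower in DN, at 82.6 against 266 CPM, while Atf3 and Dusp1 were higher. Dusp1 fell just short of 2-fold under 4 of the alternatives tried.

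For the T cell receptor complex the share of close genes was no higher than over all genes. Of 23 genes of the complex and its proximal signalling at 10 CPM or more, 14 were close and 2 differed by 2-fold or more, while over all genes 70.5% were close and 3.63% and 3.16% were past 2-fold in each direction. Trac, the α constant region, was at 718 CPM in DN and 824 CPM in CD8. Cd3e, a signalling chain of the complex, was at 813 and 737 CPM, and Lck, the kinase that binds the coreceptors, at 597 and 739 CPM. The 2 genes past the limit were both lower in DN. Themis, a signalling protein needed for thymic selection, was at 443 CPM in DN (438 to 448) and 1226 CPM in CD8 (1216 to 1235). Cd5, an inhibitory receptor that tunes receptor signals, was at 88.6 and 197 CPM. The median log2 ratio of the 23 genes was -0.27. A UMI of Trac was found in 72.4% of thinned DN cells and 76.1% of thinned CD8 cells.

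A smaller set of genes was shared by DN and CD8 and differed from control CD4. Requiring both to be at least 2-fold above CD4 and within 1.5-fold of each other gave 10 of 9085 genes (0.11%), and 10 genes (0.11%) were shared in the lower direction. The ratios over CD4 use the same CD4 library, so the 2 sides of this rule are not independent. The higher genes were Klrd1, Cd244a, Gm16341, Gpat3, BC035044, Ccdc102a, Adgrg5, Gas7, Pdgfb and Cxxc5. Klrd1 encodes CD94, the partner chain of the NKG2 receptors, and was at 300.0 CPM in DN (296 to 304), 260.0 CPM in CD8 (256 to 264) and 71.0 CPM in CD4. It was found in 34.7% of thinned DN cells and 32.6% of thinned CD8 cells (55.0% and 48.5% without thinning). Cd244a, the 2B4 receptor of natural killer (NK) cells, was at 17.6, 13.4 and 1.67 CPM in DN, CD8 and CD4. Adgrg5, an adhesion receptor coupled to G proteins, was at 25.9, 38.2 and 7.09 CPM. The lower genes included Foxp3, the factor of regulatory T cells, at 0.100 CPM in DN, 0.109 CPM in CD8 and 19.4 CPM in CD4. Trat1, an adaptor that binds the T cell receptor, was at 55.6, 61.3 and 127 CPM, and Il31ra, a cytokine receptor chain, at 33.8, 40.8 and 121 CPM.

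DN cells shared more of their differences with CD4 than with CD8. By the same rule, 139 of 9085 genes (1.53%) were higher in DN and CD4 than in CD8, and 54 (0.594%) were lower. Of the 327 genes higher in DN than in CD8, the level in CD4 lay nearer to DN on the log scale for 252 (77.1%), and it was within 1.5-fold of DN for 192. Of the 285 genes lower in DN, CD4 was nearer to DN for 144 and nearer to CD8 for 141. These counts use the DN and CD8 libraries that also chose the genes and are a description. Cd40lg, the ligand by which helper T cells activate B cells, was at 359 CPM in DN, 34.1 CPM in CD8 and 356 CPM in CD4. Il2ra, the α chain of the interleukin-2 receptor, was at 58.8, 7.10 and 48.3 CPM in the same order. Itgb3, the β3 integrin chain, was at 98.1, 13.2 and 91.0 CPM, and Mmp9, a gelatinase, at 60.1, 4.72 and 53.3 CPM.

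Of 28 lineage transcription factors that reached 10 CPM, 9 were past 2-fold in favour of DN and 6 in favour of CD8 (median log2 ratio 0.16), where 3.63% and 3.16% of all genes were. At the minimum in both libraries these were 7 and 4 of 24, without Zbtb7b and Eomes (1.97% and 1.74% over all genes). Zbtb7b, which encodes ThPOK, the factor that directs cells to the CD4 lineage, was at 58.9 CPM in DN (57.1 to 60.8), 8.54 CPM in CD8 (7.78 to 9.35) and 51.5 CPM in CD4. Runx3, which silences Cd4 in the CD8 lineage, was at 228 CPM in DN, 434 CPM in CD8 and 159 CPM in CD4, a log2 ratio of -0.93 for DN over CD8 that falls short of 2-fold. Eomes, a T-box factor of cytotoxic cells, was at 4.46 CPM in DN (3.98 to 4.98) and 63.0 CPM in CD8 (61.0 to 65.2), and at 0.869 CPM in CD4. Its relative Tbx21 was not lower in DN, at 361 against 226 CPM. Maf, which drives interleukin-4 in helper cells, was at 472 CPM in DN, 68.6 CPM in CD8 and 419 CPM in CD4. Tcf7 and Tox, factors of early and of chronically stimulated T cells, were among the lower ones, at 84.7 and 296 CPM in DN, 297 and 623 CPM in CD8 and 203 and 494 CPM in CD4. Gata3 and Rora, counted as higher, and Tox each fell short of 2-fold under at least 1 alternative.

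By the rule for named genes (50 CPM or more, receptor segments left out) the genes with the largest DN to CD8 ratios were Il4, Ly6c1, Zbtb16, Slc35f3, Cap2, Rbpms, Klrb1c, Tcrg-C4, Klra1 and Klra5. Il4, the type 2 cytokine interleukin-4, was at 112 CPM in DN (109.7 to 115), 0.127 CPM in CD8 (0.0511 to 0.262) and 96.4 CPM in CD4. The log2 ratio of DN over CD8 was 9.78 (8.74 to 11.10), or 8.40 in thinned cells, and Il4 was found in 13.6% of thinned DN cells and 0.0522% of thinned CD8 cells (28.8% and 0.0620% without thinning). Zbtb16 encodes PLZF, the factor that sets the NKT program. It was at 266 CPM in DN, 2.14 CPM in CD8 and 217 CPM in CD4, and in 32.0% of thinned DN cells against 0.248% of thinned CD8 cells (59.6% and 0.506% without thinning). Ly6c1, a surface protein of the Ly6 family, was at 71.5 CPM in DN, 0.345 CPM in CD8 and 51.7 CPM in CD4. Its log2 ratio of 7.69 was 5.53 with no cell filters and 9.20 in thinned cells. For scale, Cd4 was found in 0.0442% of thinned DN cells and 0.0131% of thinned CD8 cells, and Cd8b1 in 0.133% of thinned DN cells. The CD8 share for Il4 lay between these shares. The CD8 share for Zbtb16 (0.149 to 0.387) was above them, with an interval that overlapped that of Cd8b1 in DN (0.0685 to 0.231). Of Slc35f3, a transporter gene, 82.0 CPM were counted in DN and 1.58 CPM in CD8. Cap2, an actin regulator, was at 58.9 and 1.18 CPM, and Rbpms, an RNA-binding protein, at 93.5 and 2.23 CPM.

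Kcnq5 differed as well in the share of cells. It was found in 81.2% of thinned DN cells and 11.5% of thinned CD8 cells (88.6% and 17.5% without thinning), and its log2 ratio was 4.17 (4.14 to 4.21). Control CD4 was at 1369.5 CPM, between the other two. Kcnq5 (chromosome 1, 21398403 to 21961942, minus strand) is a long gene. The study states that default settings were used and does not say by name whether intronic reads were counted. Of 14 potassium channel genes listed, 5 were at 10 CPM or more. Kcnj8, an inward rectifier, was also higher in DN, at 38.1 against 8.52 CPM, while Kcnn4, the calcium-activated channel of activated lymphocytes, was at 98.6 CPM in DN and 114 CPM in CD8. Over all 6 libraries the genes whose log2 levels followed Kcnq5 most closely were Anxa1 (Pearson r = 0.996, 6 libraries) and then Ero1l, Tex2, Ckb, Ikzf2, Rcbtb2, Sc5d and Slc16a10. Those libraries share conditions and software versions, and 6 points allow many genes a high r. Anxa1, the annexin A1 gene, was at 221 CPM in DN and 12.9 CPM in CD8, and Ckb, a creatine kinase, at 238 and 29.4 CPM.

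**Figure D2:**
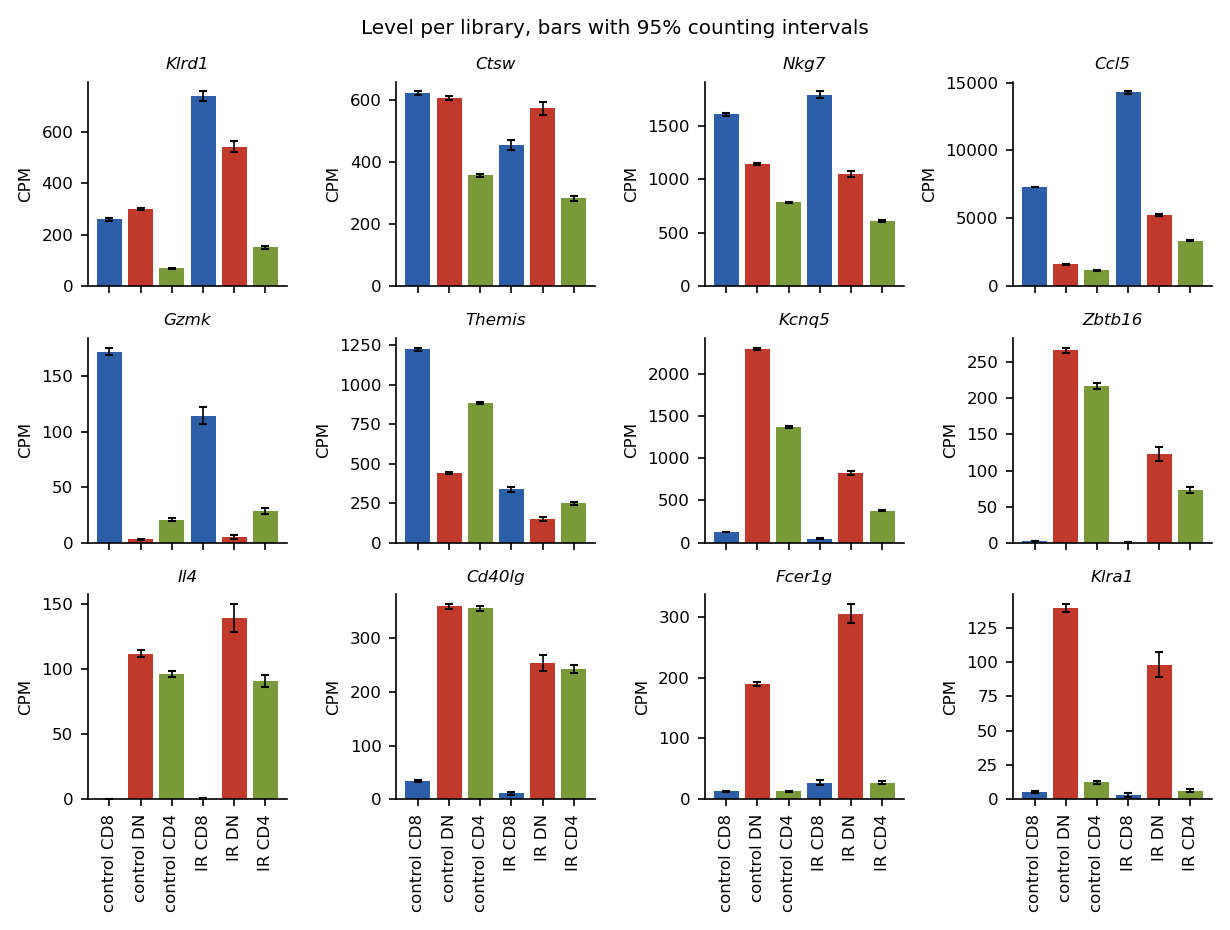
Level of 12 genes in each of the 6 libraries (bars, CPM, from 0) with 95% counting intervals, in the order CD8, DN and CD4 for control and then IR. Klrd1 and Ctsw are alike in control CD8 and control DN, Gzmk and Ccl5 are higher in CD8, Zbtb16, Il4 and Cd40lg are high in DN and CD4, and Fcer1g and Klra1 are high in DN alone (189.6 and 139.7 CPM in control).

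The Ly49 genes (Klra) lie side by side on chromosome 6 and encode lectin-like receptors that read MHC class I. Of 11 Ly49 genes in the files 6 reached 10 CPM, all in DN and, except for Klra7, in DN alone, so that the minimum itself chose genes high in DN and their count past 2-fold carries no weight. The other 5 were under 2 CPM in both libraries. Of these, Klra8 was at 1.96 CPM in DN and 0.272 CPM in CD8, Klra10 at 1.58 and 0.999 CPM, and Klra17 had 0 UMIs in CD8. Klra2 and Klra4 stood the other way, at 0.0860 and 0.172 CPM in DN and 0.291 and 0.636 CPM in CD8. Klra1 was at 139.7 CPM in DN (137 to 143), 5.41 CPM in CD8 (4.82 to 6.06) and 12.2 CPM in CD4. Klra7 was at 109.9 CPM in DN and 19.3 CPM in CD8, Klra9 at 85.4 and 6.52 CPM, and Klra5 at 60.3 and 2.69 CPM. Klra3 and Klra6 differed least, at 22.4 and 17.4 CPM in DN against 4.74 and 5.00 CPM in CD8. Klra1 was found in 12.4% of thinned DN cells and 0.392% of thinned CD8 cells (18.4% and 0.537% without thinning). These genes are near copies of each other, so that counting could split their reads and values of single members are uncertain.

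The sequence before the genes was alike for some pairs only, and every pair with Klra1 was at 47.6% to 51.8% identity. Identity between windows of unrelated genes was not computed. Of the 6, the promoter windows of Klra3 and Klra9 were the most alike, with 85.0% identity over 319 aligned positions, while the other pairs ranged from 46.5% to 76.0%. Both windows are shown for that reason (300 bases each, GRCm38.p6, chr6:130337577-130337876 and chr6:130193063-130193362, minus strand), with the 75 bases of their longest identical run in capitals.

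Klra3 promoter: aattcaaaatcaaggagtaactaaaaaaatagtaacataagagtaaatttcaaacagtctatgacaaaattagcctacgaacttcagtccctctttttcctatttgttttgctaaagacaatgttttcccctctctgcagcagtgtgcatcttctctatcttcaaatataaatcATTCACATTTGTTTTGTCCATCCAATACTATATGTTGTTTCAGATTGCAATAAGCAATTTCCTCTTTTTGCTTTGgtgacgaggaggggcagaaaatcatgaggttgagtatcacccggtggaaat

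Klra9 promoter: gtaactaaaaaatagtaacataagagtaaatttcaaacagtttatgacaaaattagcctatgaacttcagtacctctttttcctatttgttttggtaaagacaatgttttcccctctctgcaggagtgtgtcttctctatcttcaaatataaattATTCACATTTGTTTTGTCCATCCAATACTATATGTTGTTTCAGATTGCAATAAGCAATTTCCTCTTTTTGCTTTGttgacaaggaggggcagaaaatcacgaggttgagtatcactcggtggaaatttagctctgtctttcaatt

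The core motif of the RUNX factors, TGTGGT on either strand, was searched in the same windows, since Runx3 and Runx1 differed between the subsets in opposite directions (Runx1 at 1182 CPM in DN and 556 CPM in CD8). It was found in 1 of the 6 Ly49 windows, that of Klra1, 201 bases before the start, and in 16.9% of 27025 RefSeq promoter windows of the same length. Klra1 is shown with the motif in capitals (chr6:130386825-130387124, minus strand).

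Klra1 promoter: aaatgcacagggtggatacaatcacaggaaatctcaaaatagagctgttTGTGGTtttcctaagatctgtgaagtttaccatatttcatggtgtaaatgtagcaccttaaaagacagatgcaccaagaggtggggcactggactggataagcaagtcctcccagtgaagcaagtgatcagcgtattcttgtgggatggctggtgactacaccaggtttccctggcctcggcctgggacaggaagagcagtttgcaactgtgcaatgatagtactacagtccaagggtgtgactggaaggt

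Of 16 other NK receptor genes that reached 10 CPM, 10 were past 2-fold in favour of DN, 1 was lower and 2 were close (median log2 ratio 1.65), beside 3.63%, 3.16% and 70.5% of all genes. The list held 19 genes, and 5 of the 10 reached the minimum in DN alone. At the minimum in both libraries, 5 of 11 were higher and 1 lower (1.97% and 1.74% over all genes). Klrb1c, the gene of the NK1.1 antigen, was at 197 CPM in DN (194 to 200.2), 5.78 CPM in CD8 (5.16 to 6.45) and 45.6 CPM in CD4, and in 25.8% against 0.862% of thinned cells (45.6% and 1.68% without thinning). Klrk1, the activating receptor NKG2D, was at 593 CPM in DN and 209 CPM in CD8, and Klre1 at 214 and 33.0 CPM. Klrc1, the inhibitory NKG2A chain that pairs with CD94, was at 282 and 109 CPM, so that NKG2A differed past 2-fold while its partner Klrd1 was close. Ncr1, the NK receptor NKp46, was at 15.0 CPM in DN and 0.363 CPM in CD8, and its log2 ratio of 5.37 was 6.22 without the barcodes that held markers of other cells. The 2 close genes were Klrd1 and Klrg1, a receptor of differentiated effector cells (16.2 and 15.7 CPM). Crtam, a receptor of activated cytotoxic cells, was the member lower in DN, at 13.6 against 68.6 CPM. Cd160, which binds MHC class I and HVEM, was at 124 CPM in DN and 241 CPM in CD8, a log2 ratio of -0.95.

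Adaptors carry the signals of these receptors into the cell. Fcer1g, the FcRγ chain, was at 189.6 CPM in DN (186 to 193), 13.1 CPM in CD8 (12.2 to 14.1) and 12.9 CPM in CD4. Tyrobp, which encodes DAP12, was at 49.1 CPM in DN and 9.14 CPM in CD8, and Clnk, an adaptor of immune receptors, at 85.0 and 4.41 CPM. Fcer1g was found in 17.0% of thinned DN cells and 1.40% of thinned CD8 cells (25.6% and 2.05% without thinning). Hcst, the DAP10 adaptor of NKG2D, was shared, at 897 CPM in DN and 840 CPM in CD8. Cd247, the ζ chain of the T cell receptor, was at 273 CPM in DN and 429 CPM in CD8. Of 9 adaptor genes in the files 7 reached the minimum, and 3 of these were at least 2-fold higher in DN and none 2-fold lower (3.63% and 3.16% over all genes). Tyrobp and Clnk reached it in DN alone, which leaves Fcer1g of 5 genes at the minimum in both libraries.

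Granule genes were partly shared and partly lower in DN. Of 17 at 10 CPM or more, 4 were close, 6 were at least 2-fold lower in DN and 1 was higher (median log2 ratio -0.03), beside 70.5%, 3.16% and 3.63% of all genes. At the minimum in both libraries, 4 of 15 were lower and 1 higher. Ctsw, a protease of cytotoxic granules, was at 609 CPM in DN (603 to 614) and 623 CPM in CD8 (616 to 629.5). Nkg7, a granule membrane protein, was at 1145 and 1604 CPM, and Srgn, the proteoglycan that packs granzymes, at 1672 and 1361 CPM. The lower genes were the granzymes and their helpers. Gzmk was at 3.13 CPM in DN (2.72 to 3.57) and 172 CPM in CD8 (169 to 176), and in 0.497% against 24.5% of thinned cells (1.84% and 39.3% without thinning). Gzma was at 76.6 and 240.3 CPM, Gzmb at 69.9 and 173 CPM, and Gzmm at 1.96 and 34.0 CPM. Gzmb fell just short of 2-fold without the top 5% of barcodes, the study's own limit against doublets. Prf1, which encodes perforin, was at 54.5 CPM in DN and 122 CPM in CD8. Cst7, an inhibitor of granule proteases, was at 42.6 and 118 CPM. Lyst, which controls the size of lysosomes and granules, was the member higher in DN, at 1480.3 CPM against 433 CPM.

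Chemokines differed in both directions. Ccl5 was at 1619 CPM in DN (1610.0 to 1629) and 7321 CPM in CD8 (7299 to 7344), and in 50.8% and 85.2% of thinned cells (63.0% and 91.4% without thinning). Ccl4 was at 85.2 CPM in DN and 666 CPM in CD8, and Ccl3 at 12.0 and 82.1 CPM. All 3 are secreted attractants of T cells and monocytes. Xcl1, which attracts cross-presenting dendritic cells, was higher in DN, at 802 against 393 CPM, close to the 2-fold limit, and Ccl1 was at 105 and 18.5 CPM. The log2 ratio of Ccl1 was 2.50 in summed counts but 0.96 as a mean over cells, where it falls short of 2-fold. Of the cytokines, Ifng, the type 1 cytokine, was at 473 CPM in DN and 321 CPM in CD8, and Tnf at 119.8 and 126 CPM. Beside Il4, Csf2 (GM-CSF) was higher in DN, at 31.5 against 4.03 CPM. In all, 22 cytokine genes were in the files, 12 reached the minimum and 4 of these were at least 2-fold higher in DN, 2 were lower and 3 were close (3.63%, 3.16% and 70.5% over all genes). Of the 4 higher genes 3 reached the minimum in DN alone, and in both libraries 1 of 9 was higher and 2 lower. Of those called, Tnfsf11, Il2 and Tnfsf8 fell short of 2-fold under at least 1 alternative. Il9 had 0 UMIs in both libraries and Il17a had 0 UMIs in DN, which allows up to 0.0430 CPM in DN and 0.0545 CPM in CD8.

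The list of coinhibitory receptors also held the ligand gene Cd200, the enzyme genes Entpd1 and Nt5e and the intracellular Pdcd4. Of 13 genes of this list at 10 CPM or more, none was at least 2-fold higher in DN and 6 were lower (median log2 ratio -0.95), beside 3.63% and 3.16% of all genes. Of the 6, 4 reached the minimum in CD8 alone, Havcr2 and Lag3 among them, and 2 of 9 were lower at the minimum in both libraries. In IR 2 of 13 were higher and 3 lower, beside 7.56% and 4.15% of all genes. Havcr2, which encodes TIM-3, was at 0.344 CPM in DN and 18.2 CPM in CD8, Lag3 at 4.42 and 29.0 CPM, and Pdcd1, which encodes PD-1, at 27.2 and 64.2 CPM. The log2 ratio of Havcr2 was -5.72, and -7.36 in thinned cells. Of 10 costimulatory genes 3 were at least 2-fold higher in DN (Cd40lg, Icos and Tnfrsf18) and 1 was lower (Crtam), beside 3.63% and 3.16% of all genes. Icos was at 323 CPM in DN and 103 CPM in CD8. Among 25 genes of cytokine receptors and Socs suppressors, 5 were higher and 5 lower (3.63% and 3.16% over all genes), and 4 and 4 of 23 at the minimum in both libraries. Il12rb2, a chain of the interleukin-12 receptor, was at 452 CPM in DN and 100.0 CPM in CD8, and Socs2, a suppressor of cytokine signals, at 174 and 17.9 CPM. Il7r, the receptor for the survival cytokine interleukin-7, was at 142 and 359 CPM.

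Of 14 genes of naive and recirculating T cells, 9 were at least 2-fold lower, 2 were close and 1, Satb1, was higher (median log2 ratio -1.50), where over all genes 3.16% were lower, 70.5% close and 3.63% higher. At the minimum in both libraries, which Ccr7 did not reach, 6 of 11 were lower. Ccr7, which guides cells to lymph nodes, was at 1.03 CPM in DN (0.808 to 1.30) and 80.5 CPM in CD8 (78.1 to 82.9), and in 0.0773% against 10.96% of thinned cells (0.440% and 18.1% without thinning). Its log2 ratio of -6.28 was -7.37 in thinned cells. Dapl1, another gene of the list, was at 2.60 and 145 CPM. Satb1, a chromatin organiser, was at 833 CPM in DN and 388 CPM in CD8. In a summed library, fewer cells of a kind and less RNA per cell cannot be told apart. Of 13 tissue-resident genes 3 were higher in DN and 2 lower (3.63% and 3.16% over all genes), of which Ahr fell short in thinned cells and Itgae reached the minimum in CD8 alone. Cxcr6, the receptor of tissue T cells, was at 1122 CPM in DN and 659 CPM in CD8, whereas Itgae, the CD103 integrin chain, was at 3.36 and 27.9 CPM. Itga4, the α4 integrin chain that binds VCAM-1, was at 186 CPM in DN and 934 CPM in CD8. Of 14 cell cycle genes, 5 were at least 2-fold lower in DN and none was higher (3.16% and 3.63% over all genes), and 4 of 13 were lower at the minimum in both libraries. Of these 5, Birc5 and Cdk1 fell short without the barcodes that held markers of other cells and Tyms with the removed features kept, while Mki67 and Top2a passed without the top 5% of barcodes, in thinned cells and as a mean over cells. Stmn1, a microtubule regulator of dividing cells, was at 72.9 and 167 CPM, and Pcna, the replication clamp, at 187 and 188 CPM.

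**Figure D3:**
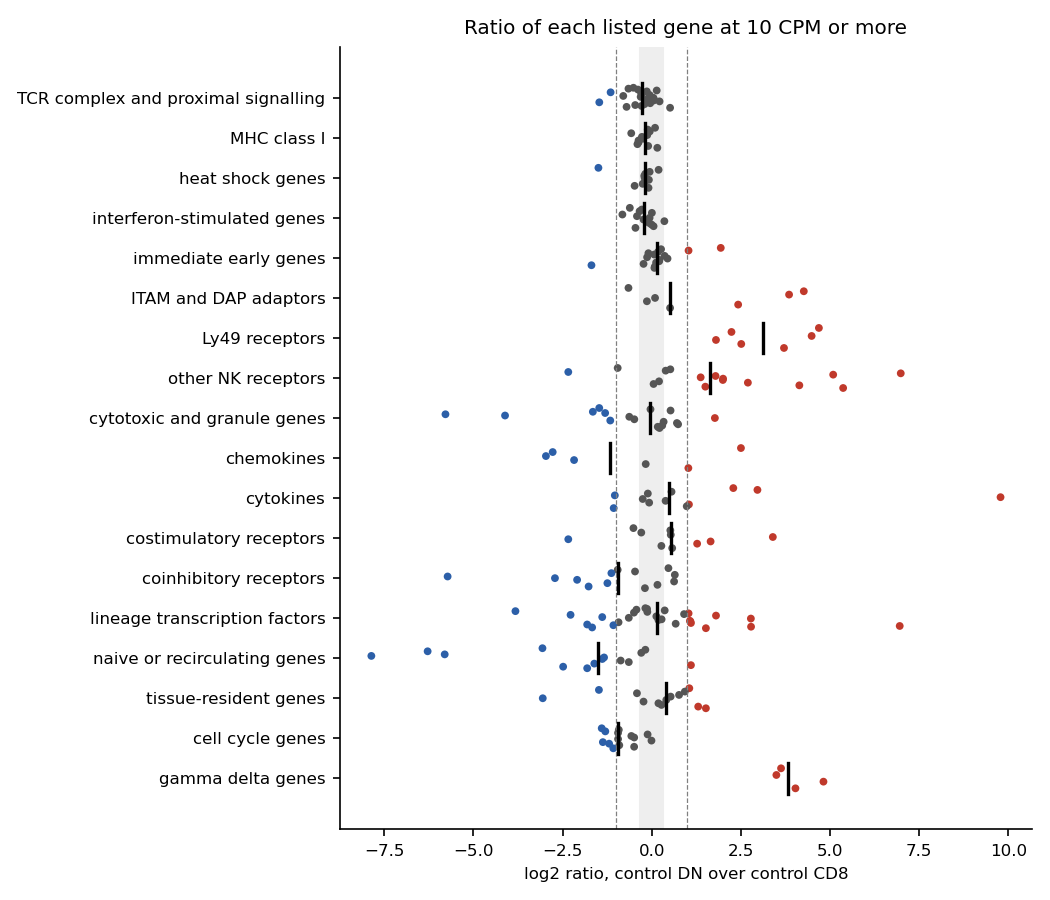
Log2 ratio of control DN over control CD8 (x axis) for the genes of 18 lists at 10 CPM or more, with 1 point per gene, a black bar at each list's median, grey shading for close genes and dashed lines at 2-fold. The MHC class I list lies wholly between the 2-fold lines, the heat shock list does so except for Bag3 and the T cell receptor list except for Themis and Cd5, the Ly49 and γδ genes that reached the minimum lie to the right of the 2-fold line, and the naive list lies mostly to the left (median -1.50).

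Genes of the γ chain locus were counted although the cells were sorted for the αβ receptor. Tcrg-C4 was at 119.9 CPM in DN (117 to 123) and 4.25 CPM in CD8 (3.72 to 4.83), and Trgv2 at 191 and 11.7 CPM. Tcrg-C1 was at 63.6 and 5.14 CPM and Tcrg-C2 at 147 and 13.0 CPM. Of 11 γδ genes in the files these 4 reached 10 CPM, Tcrg-C1 and Tcrg-C4 in DN alone, so that their count past 2-fold carries no weight (3.63% of all genes were higher in DN). Trdc, the δ constant region, was at 2.84 CPM in DN and 5.25 CPM in CD8, below that minimum, and Trdv1 at 0.129 and 1.11 CPM. Tcrg-C1 and Tcrg-C2 are near copies, and the single values are uncertain.

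Variable segments of the αβ receptor were counted per cell, and the segments named here were chosen after their values were seen. Cells were not thinned for these counts, so that the unequal depth of the libraries remains in them. A UMI of any Trav segment was found in 1504 DN cells (16.2%) and 2912 CD8 cells (30.1%), and of any Trbv segment in 3712 (39.9%) and 3253 (33.6%). The shares that follow are of these cells. Trav11, the α segment of invariant NKT cells, was found in 285 DN cells (18.9%, 17.0 to 21.02) and in 5 CD8 cells (0.172%, 0.0558 to 0.400), and in 8.56% in control CD4. Trbv13-2, Trbv29 and Trbv1, the β segments with which that receptor pairs, were each more frequent in DN, but so were other β segments. Trbv13-2 was found in 27.1% of DN cells (25.6 to 28.5) and 7.93% of CD8 cells (7.03 to 8.91), Trbv29 in 12.3% and 4.80%, and Trbv1 in 10.6% and 3.44%. Outside that set, Trbv12-2 was the most frequent β segment in DN, in 29.0% of DN and 17.6% of CD8 cells, and Trbv13-1 (9.19% and 6.12%) and Trbv13-3 (6.33% and 2.83%) were also more frequent in DN. Trbv13-1, Trbv13-2 and Trbv13-3 are related segments, so that counting could split their reads. Segments more frequent in CD8 included Trbv3, in 25.6% of CD8 cells (24.1 to 27.2) and 1.83% of DN cells (1.43 to 2.32). Trav4-4-dv10 was found in 293 CD8 cells (10.1%) and 15 DN cells (0.997%). In CD8 those cells held 8.30 UMIs of the segment each on average, which was 34.9% of all Trav UMIs of the library. Over all cells, with or without a Trbv UMI, Trbv3 was found in 81 of those 293 cells (27.6%, 22.6 to 33.1) and in 753 of the other 9392 CD8 cells (8.02%, 7.48 to 8.59). In IR CD8 the segment was in 1.58% of cells with a Trav UMI (0.789 to 2.80). Cells of 1 library are not replicates, and how many mice they came from was not given. Without thinning, Zbtb16 was found in 190 of the 285 DN cells with Trav11 (66.7%, 60.9 to 72.1) and in 5358 of all the other 9024 DN cells (59.4%, 58.4 to 60.4). In control CD4 these shares were 83.5% (77.4 to 88.5) and 33.1% (32.1 to 34.1). The other cells include those without any Trav UMI, in which Trav11 may have gone unseen.

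**Figure D4:**
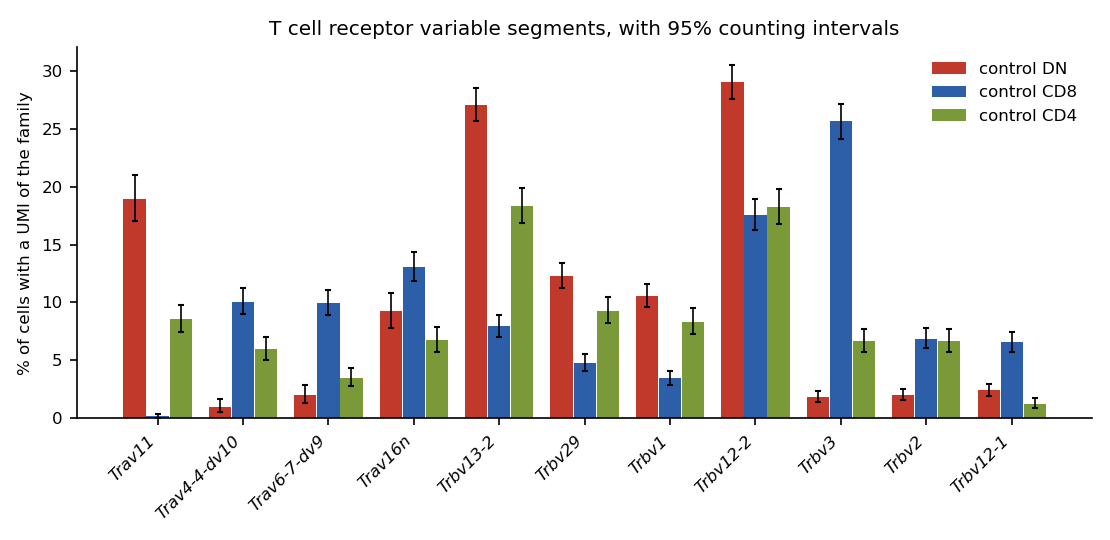
Share of cells with a given T cell receptor variable segment among cells with a UMI of its family (Trav or Trbv, y axis in percent) in control DN, CD8 and CD4 (bars from 0, with 95% counting intervals). Trav11 and Trbv13-2 are highest in DN (18.9% and 27.1%), and Trbv3 and Trav4-4-dv10 in CD8 (25.6% and 10.1%).

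The DN differences did not all sit in the same cells. Thinned DN cells were split by a UMI of Fcer1g and of Zbtb16, a split chosen after the values were seen. Of 9055 cells, 1281 (14.1%) had Fcer1g only, 2636 (29.1%) Zbtb16 only, 261 (2.88%) both and 4877 (53.9%) neither. Zbtb16 was found in 16.9% of cells with Fcer1g (15.1 to 18.9) and in 35.1% of cells without it (34.0 to 36.2). At this depth a cell without a UMI may still express the gene.

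Ly49 levels were higher in cells with Fcer1g only than in cells with Zbtb16 only. Klra1 was at 500.4 CPM in them (473 to 529), 45.5 CPM in cells with Zbtb16 only (39.9 to 51.7) and 3.98 CPM in thinned CD8 cells, and Klra9 at 320.5, 29.4 and 6.66 CPM. Cells with neither gene held Ly49 UMIs as well, with Klra1 at 79.4 CPM and Klra9 at 55.3 CPM. Gzma, which was lower in the whole DN library, was at 161 CPM (146 to 177), 9.10 CPM (6.71 to 12.1) and 182 CPM (175 to 189) in the same order, and Runx3 at 381, 187 and 440.3 CPM. Gzmb was at 161 CPM in cells with Fcer1g only, 41.0 CPM in cells with Zbtb16 only and 142 CPM in CD8. For these 3 genes the cells with Fcer1g only were close to CD8 by the same limit of 25%. The NK receptor gene Ncr1 also sat mainly in cells with Fcer1g, at 75.7 CPM with Fcer1g only and 0.759 CPM with Zbtb16 only. Trac was at 599 and 785 CPM in the same order. The part of NK cells in the Fcer1g group was not tested. Klrd1 was at 659 CPM with Fcer1g only, 183 CPM with Zbtb16 only and 265 CPM in CD8, so that the close level of the whole libraries was a mean over unequal DN cells. Cd244a was likewise farther from CD8 in cells with Fcer1g only, at 56.2, 4.93 and 12.8 CPM. Gzmk and Themis were lower than in CD8 in both kinds. Gzmk was at 2.34 CPM with Fcer1g only and 1.90 CPM with Zbtb16 only, against 179 CPM in CD8, and Themis at 176 and 536 CPM, against 1235 CPM.

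Il4, Maf and Icos were higher in the cells with Zbtb16 only. Il4 was at 183 CPM in them (172 to 195) and 19.1 CPM in cells with Fcer1g only (14.1 to 25.3), and Maf at 649 and 244 CPM. Icos was at 417 and 158 CPM. Kcnq5 was high in both kinds, at 2517 CPM with Zbtb16 only, 1604 CPM with Fcer1g only and 2426 CPM with neither, against 116 CPM in thinned CD8 cells. Tcrg-C4 was also alike in both, at 119.9 and 115 CPM, against 3.72 CPM in CD8.

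Markers of other cells were examined beside these results. The summed level of 10 myeloid markers was 104 CPM in DN and 116 CPM in CD8, almost all from Cst3, and S100a8 was at 0 UMIs in both, S100a9 in CD8. The 6 B cell markers summed to 169 and 170.4 CPM, almost all from Ighm, while Cd79b was at 0.803 and 9.79 CPM. Erythroid markers summed to 1.94 and 1.78 CPM, endothelial markers to 0.746 and 1.24 CPM (Kdr at 0 UMIs in DN) and tubule markers to 1.89 and 2.69 CPM (Aqp1 at 0 UMIs in both). The 6 NK or innate lymphoid markers summed to 28.3 CPM in DN and 65.8 CPM in CD8, with Gata2 at 0 UMIs in both, Ncr1 higher in DN and Eomes higher in CD8. Among thinned DN cells, 163 had a UMI of Ncr1, and Trac was found in 61.3% of them (53.4 to 68.9) and in 72.6% of the others (71.7 to 73.6). Trbc2 was found in 92.0% and 89.9%. Fcer1g was found in 82.2% of the cells with Ncr1 (75.5 to 87.7) and in 15.8% of the others (15.1 to 16.6). The part of cells other than αβ T cells in the NK receptor results and in the split by Fcer1g was not tested.

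The comparison was repeated in ischemic kidney, where the libraries shared no sample with control. IR DN held 3951 cells and IR CD8 6413 cells, with medians of 1520 and 1827 UMIs, and the file headers name another Cell Ranger version for IR than for control, so condition and version cannot be told apart. DN was at least 2-fold higher than CD8 for 680 of 8989 genes (7.56%) and lower for 373 (4.15%). The scaling moved this split: TMM gave 505 and 483 genes, and keeping the removed features gave 990 and 186. The median log2 ratio over all genes was 0.11 in IR by total counts, -0.05 by TMM and 0.43 with the removed features kept, against -0.02, -0.03 and 0.07 in control. Ribosomal protein genes, mitochondrial genes and Malat1 took 30.6% of UMIs in IR DN and 44.2% in IR CD8.

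Of the 327 genes higher in control DN, 246 were also at least 2-fold higher in IR DN, which is 75.2% of the control list and 36.2% of the IR list. Of the 285 lower genes, 177 were lower in IR, 62.1% and 47.5% of the lists. No gene was higher in control DN and lower in IR DN, and 2 were lower in control DN and higher in IR DN. Kcnq5 was at 821 CPM in IR DN and 48.1 CPM in IR CD8, a log2 ratio of 4.09 beside 4.17 in control. Il4 was at 139 and 0.135 CPM, and Klra1 at 98.0 and 2.98 CPM. Klrd1 was at 542 CPM in IR DN and 738 CPM in IR CD8, a log2 ratio of -0.44 beside 0.21 in control, and so was not close in IR. Gzmk was at 4.98 CPM in IR DN and 114 CPM in IR CD8, and Ccr7 at 9.14 and 643 CPM. Trav11 was found in 28 IR DN cells (11.5% of those with a Trav UMI, 7.79 to 16.2) and in 0 IR CD8 cells, for which the exact interval reaches 0.527%. Erythroid markers summed to 21.2 CPM in IR DN and 427 CPM in IR CD8, and their part in the IR ratios was not tested.

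**Figure D5:**
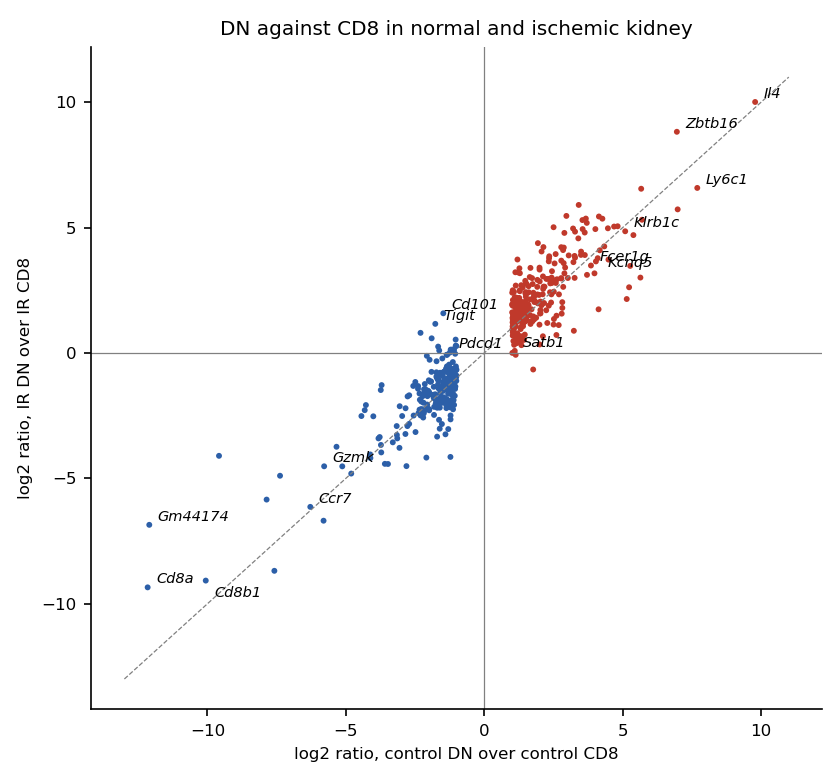
Log2 ratio of DN over CD8 in control (x axis) and in IR (y axis) for the genes at least 2-fold apart in control and at 10 CPM or more in an IR library, with the dashed line where both are equal. Of 281 such genes higher in control DN 279 are above 0 in IR, and of 233 lower genes 220 are below 0, with Tigit and Cd101 on the opposite side.

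The 10 genes the study named for DN cells were all at least 2-fold higher in control DN than in control CD8, against 3.63% of all genes. Of the 10, Klrb1c reached the minimum in DN alone, and at the minimum in both libraries 9 of 9 were higher (1.97% over all genes). Xcl1 and Dusp1 fell just short of 2-fold without the top 5% of barcodes, in thinned cells, without the barcodes that held markers of other cells and as a mean over cells, which leaves 8 of 10. The study chose the 10 genes on these samples, so the count is not independent evidence of their direction. By qPCR of sorted cells from normal kidney, the study reported Kcnq5 and Klrb1c as significantly higher in DN than in CD8. For Fcer1g, Klre1 and Xcl1 it reported a tendency to higher levels in DN that did not reach significance. Fgl2, a secreted fibrinogen-like protein with suppressive roles, was at 577 CPM in DN and 174 CPM in CD8. Dusp1, a phosphatase that shuts off MAP kinases, was at 568 and 277 CPM. Spry2, another brake on the same pathway, was at 73.5 CPM in DN and 14.6 CPM in CD8, and 2 of 8 MAP kinase brakes were at least 2-fold higher in DN (3.63% of all genes).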

How the data were processed

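Single-cell RNA sequencing data of kidney T cells were analysed from the deposited matrices, which hold raw UMI counts per gene and barcode, made by the authors with 10x Genomics 3′ v3.1 chemistry and Cell Ranger on mm10, with no normalization. The submitters' notes name Cell Ranger 6.0.1 for all libraries, whereas the file headers name 5.0.1 for control and 6.0.1 for IR. Groups were taken from the sample titles, with 1 library in each of 6 groups and no number to pair them. The control DN, control CD8, control CD4, IR DN and IR CD8 libraries enter the comparisons, and IR CD4 was used only to rank genes that follow Kcnq5 and to plot levels per library.

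Barcodes with at least 500 genes, at most 20% mitochondrial UMIs and at least 1 Cd3 UMI were kept, 49177 of 54039. The study also left out the top 5% of barcodes as doublets, which is an alternative here, and no doublet caller was run. Counts were summed per library over 32181 of 32285 features, and CPM and log2 ratios were computed from the sums. A gene entered a comparison at 10 CPM or more in the highest library compared and was called at 2-fold. A count of 0 was set to 3 counts. With 1 library per group no model was fitted. Intervals are exact 95% Poisson intervals for CPM, conditional binomial intervals for ratios and Clopper-Pearson intervals for shares, and cover counting error only. Rare UMIs set the precision: 3 counts are 0.0430 CPM in control DN and 0.623 CPM in IR DN, the deepest and the shallowest library used.

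Named genes were the members of 33 lists, the 10 largest ratios in each direction at 50 CPM or more without receptor segments, the 8 leading genes of each shared class at 50 CPM or more in the higher library, and the 10 close genes (at most 25% apart) with most UMIs. Genes outside this rule (receptor segments, the members of the shared classes at under 50 CPM and those that follow Kcnq5) were named after their values were seen. The members and lists were chosen with earlier results of these data known. Gene coordinates were from GENCODE M21 (99.8% of features matched) and promoter windows from RefSeq (GRCm38.p6), where all 7 genes looked up were matched. Alternatives tried were other barcode filters, TMM scaling by edgeR 4.0.16 in R 4.3.3, thinned cells, a mean over cells, the removed features kept, and other limits. Python 3.11.15, numpy 2.4.6, scipy 1.17.1 and pandas 2.3.3 were used. Results that need certain genes are left out of the text.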

Additional observations from a re-analysis of the deposited data

Results flagged for a closer look

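Of the genes past 2-fold in control kidney, 2 were past 2-fold in the opposite direction in IR kidney. Cd101, an inhibitory receptor of resident T cells, had a log2 ratio of DN over CD8 of -1.48 in control (11.03 against 30.8 CPM) and 1.58 in IR (33.6 against 11.2 CPM). Tigit, an inhibitory receptor that competes with CD226, had a log2 ratio of -1.77 in control (8.93 against 30.4 CPM) and 1.16 in IR (31.8 against 14.2 CPM). Each value comes from 1 library, and the difference between control and IR was not tested.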

How the results depend on the processing

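With no minimum CPM, 2959 genes were higher and 3219 lower in control DN than in CD8 and 9591 were close, and with a minimum of 50 CPM these counts were 132, 108 and 3329. With the minimum reached in both libraries, a setting chosen after the data were seen, 164 were higher and 145 lower. A limit of 1.5-fold gave 676 higher and 617 lower. In IR, the higher and lower counts were 4151 and 1378 with no minimum, 290 and 140 at 50 CPM, 1457 and 818 at 1.5-fold, and 1364 and 695 in thinned cells, of which only 294 DN and 461 CD8 cells were deep enough. With the removed features kept, 186 genes were lower in IR DN. Genes shared by DN and CD8 numbered 1046 (higher than CD4) and 511 (lower) with no minimum, and 1 and 3 at 50 CPM. Genes shared by DN and CD4 numbered 1221 and 671 with no minimum, 59 and 20 at 50 CPM, and 35 were lower than CD8 with the removed features kept. The other alternatives left these counts within 1.5 times. No named ratio at the 2-fold limit changed direction. Of 132 named genes past 2-fold, at most 7 fell short under any alternative of scaling, barcodes or averaging, and Dusp1, Xcl1, Gata3 and Il2 recurred among them. Klra1, Klrb1b, Klri2, Rbpms, Csf1, Ifngr2, Igfbp4, Lag3 and the coreceptor genes also moved by over 1.5-fold under at least 1 alternative and stayed past 2-fold. Why the settings differ was not tested. Leaving out barcodes with a marker UMI of another cell type kept only 6343 DN and 7329 CD8 cells. No paired analysis was possible because the groups hold 1 library each and carry no shared numbers.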

Other observations

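Of 12 genes of receptors for chemokines and other trafficking signals, 2 were at least 2-fold higher in control DN than in control CD8 and 4 were lower (3.63% and 3.16% over all genes, median log2 ratio -0.14). The list held 18 genes. Ccr4 reached the minimum of 10 CPM in DN alone and Ccr7 and Cx3cr1 in CD8 alone, and at the minimum in both libraries 1 of 9 was higher and 2 lower. The higher genes, Ccr2 and Ccr4, which serve homing to inflamed tissue and skin, were at 283 and 25.2 CPM in DN and 69.3 and 3.51 CPM in CD8. Lower in DN were the chemokine receptors Ccr7 and Cx3cr1, the sphingosine-1-phosphate receptor S1pr1 and the oxysterol receptor Gpr183, with S1pr1 at 32.6 and 99.4 CPM and Gpr183 at 64.2 and 219 CPM. Cxcr3, the receptor of type 1 effector cells, was close, at 387 and 331 CPM, as were Cxcr4 and S1pr4, another sphingosine-1-phosphate receptor.

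Of 8 genes of the SLAM family of receptors and its adaptor SAP (Sh2d1a), which serve NKT cell development, none was 2-fold higher in DN, 1 was lower and 3 were close (3.63%, 3.16% and 70.5% over all genes). Slamf6 was at 21.4 CPM in DN and 92.0 CPM in CD8, while Slamf1 was at 117 and 127 CPM. Among 13 integrin and adhesion genes 1 was at least 2-fold higher in DN (Itgb3) and 4 were lower (Itga4, Itga6, Itgae and Itgax), beside 3.63% and 3.16% of all genes, with a median log2 ratio of 0.11. At the minimum in both libraries, 1 of 11 was higher and 2 were lower. The largest ratios in favour of CD8 outside the coreceptor locus and the genes already described included Fam169b, at 5.79 CPM in DN and 203 CPM in CD8, and Lilr4b, an inhibitory receptor of the leukocyte immunoglobulin-like family, at 2.41 and 52.2 CPM. Fgf13, an intracellular growth factor homolog, was lower in DN and CD4 than in CD8, at 76.9, 67.1 and 341 CPM, and so was Plek, a substrate of protein kinase C, at 11.6, 12.9 and 83.2 CPM.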
